A study of Homo sapiens with 6 samples.

Results

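Matrix metalloproteinases (MMPs) and tissue inhibitors of metalloproteinases (TIMPs) were examined in the RNA of HK-2 cells. The set was chosen by gene name and held 10 of the 58825 genes in the deposited table, namely the 7 MMPs MMP1, MMP2, MMP3, MMP7, MMP9, MMP10 and MMP14 and the 3 inhibitors TIMP1, TIMP2 and TIMP3. HK-2 cells are immortalized epithelial cells of the human kidney tubule, and OX-LDL is an oxidized form of the cholesterol carrier LDL. Poly(A) RNA was sequenced in 3 untreated Control samples and in 3 samples of cells that received OX-LDL at 25 µg/ml over 48 h, to ask how a lipid load changes gene expression in tubular cells. Both groups are of the same cell line, the treated cells were kept in low serum before OX-LDL was added according to the study's methods, and no native LDL group was analysed here. Levels are given in FPKM, which counts fragments relative to transcript length and library size, and the deposited counts are estimates in which 1 read pair contributes about 4 counts.

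MMPs are zinc-dependent proteases that cut collagens, laminins, proteoglycans and cell surface proteins. Most are made as inactive proenzymes, which become active once the propeptide is cut off, and TIMPs bind the active enzymes and block them. In the kidney, MMPs and TIMPs take part in the turnover of the tubular basement membrane and the interstitial matrix, and MMP7 is known to be made by injured tubular epithelium. A transcript level says how much template for a protease is present and does not measure secreted, activated or inhibited protein.

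Library totals ranged from 62561347 to 76797607 counts, which is about 15640337 to 19199402 read pairs, and 18313 to 18755 genes exceeded 12 counts, or 3 read pairs, in a library. That level was taken as the detection limit. The labelled cell type was checked against marker genes. The epithelial genes EPCAM, KRT8, KRT18 and KRT19 were present, with EPCAM at 51.2 FPKM in Control and at 53.1 FPKM in OX-LDL, but CDH1 did not exceed 0.144 FPKM in any library. Of 8 proximal tubule markers, PAX8, a transcription factor of the nephron, was the only one with a mean over 0.1 FPKM, and the endocytic receptor LRP2 was at 0 counts in every library. The defining markers of differentiated proximal tubule were thus at or near 0 in these cultures.

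The promoters are shown for 4 of the 10 genes. The choice was limited to the 5 genes with a promoter in the reference used, and MMP1 was not among these. The 4 place the gene that rose most, MMP7, beside MMP10, a gene of the same cluster near the detection limit. They also place it beside 2 genes that were well expressed in both groups, MMP14 and TIMP1. Each window runs from 250 bases before to 50 bases after the start of the transcript, 5′ to 3′ on the strand of the gene, and was taken from RefSeq on GRCh38.p14. Capitals mark TGAGTCA, the letters bound by AP-1 dimers of FOS and JUN proteins, and TATAAA, the letters bound by TBP. The windows lie at chr11:102530698-102530997 on the minus strand for MMP7, chr11:102780579-102780878 on the minus strand for MMP10, chr14:22836335-22836634 on the plus strand for MMP14 and chrX:47582186-47582485 on the plus strand for TIMP1.
MMP7: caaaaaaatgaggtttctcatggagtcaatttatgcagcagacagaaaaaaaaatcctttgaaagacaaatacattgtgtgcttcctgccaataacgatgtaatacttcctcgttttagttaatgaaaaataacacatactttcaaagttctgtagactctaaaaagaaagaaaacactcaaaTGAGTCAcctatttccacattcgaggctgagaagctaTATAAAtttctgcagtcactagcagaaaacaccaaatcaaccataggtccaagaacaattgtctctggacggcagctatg
MMP10: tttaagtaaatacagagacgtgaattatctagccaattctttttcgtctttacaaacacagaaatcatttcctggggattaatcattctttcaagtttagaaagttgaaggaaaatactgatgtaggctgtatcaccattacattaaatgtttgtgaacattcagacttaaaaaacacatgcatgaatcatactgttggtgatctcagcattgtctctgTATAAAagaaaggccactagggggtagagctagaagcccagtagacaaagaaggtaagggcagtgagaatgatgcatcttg
MMP14: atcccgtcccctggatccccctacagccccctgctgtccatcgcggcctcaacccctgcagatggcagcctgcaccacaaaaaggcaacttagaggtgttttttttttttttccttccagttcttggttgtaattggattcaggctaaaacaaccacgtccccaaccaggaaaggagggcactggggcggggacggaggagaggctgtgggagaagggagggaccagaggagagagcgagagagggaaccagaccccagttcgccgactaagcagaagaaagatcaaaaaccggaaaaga
TIMP1: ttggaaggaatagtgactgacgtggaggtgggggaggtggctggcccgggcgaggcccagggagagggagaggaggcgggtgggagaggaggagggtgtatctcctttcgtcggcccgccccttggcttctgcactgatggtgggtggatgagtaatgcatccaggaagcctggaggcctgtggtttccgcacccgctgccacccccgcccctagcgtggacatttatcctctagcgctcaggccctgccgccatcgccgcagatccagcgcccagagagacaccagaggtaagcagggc

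RefSeq promoters were found for 5 of the 10 genes, these 4 and TIMP3. MMP1, MMP2, MMP3, MMP9 and TIMP2 had no entry and were not searched. Motifs were searched on both strands. MMP7 carried TGAGTCA from position -67, counted from the transcript start, and TATAAA from position -30. The MMP10 window held TATAAA from position -31 and no TGAGTCA. In MMP14, TIMP1 and TIMP3, neither motif was found. Only these exact letters were searched, so a site spelled with other letters would be missed. The same search covered 9 of 16 other MMPs, those with an entry. MMP13, which lies in the same cluster as MMP7 and MMP1, had none. Whether MMP1 or MMP13 carries TGAGTCA was therefore not examined. TATAAA was found in MMP8, MMP20, MMP21 and MMP26, and TGAGTCA in none of the 9. MMP11, MMP15, MMP23B, MMP24 and MMP27 held neither motif. Among 34796 human promoter windows of the same length, 4.96% held TGAGTCA and 11.6% held TATAAA. The core letters of a TCF/LEF site, CTTTGA or its reverse complement, were found in the MMP7 window from positions -194 and -108, and 12.9% of all windows held them. ETS letters, AGGAAG or the reverse complement, were found in the MMP7 window from positions -169 and -145 and in the TIMP1 window from position -87, and 33.7% of all windows held them. These matches describe letters in a window and not bound sites.

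Of the 10 genes, 6 reached an average of 0.1 FPKM or more and were tested. MMP1, MMP7 and TIMP1 were higher in OX-LDL, none was lower, and MMP9, MMP14 and TIMP2 did not reach significance (edgeR's quasi-likelihood test, Benjamini-Hochberg adjusted p under 0.05 over all 19510 genes tested). Across all those genes, 15.3% passed, 7.91% with higher and 7.42% with lower levels in OX-LDL. The 3 OX-LDL libraries lay above the 3 Control libraries for 4 of the 6 tested genes, MMP1, MMP7, MMP14 and TIMP1, and below them for none. Of all tested genes, 16.8% lay fully above and 20.5% fully below. The median log2 fold change was 0.44 over the 6 tested genes and -0.00 over all tested genes. The labels do not say whether the libraries came from separate cultures, so the p-values measure the spread between these samples. In RNA from whole cultures, a change in the share of expressing cells and a change in RNA per cell cannot be told apart.

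**Figure D1:**
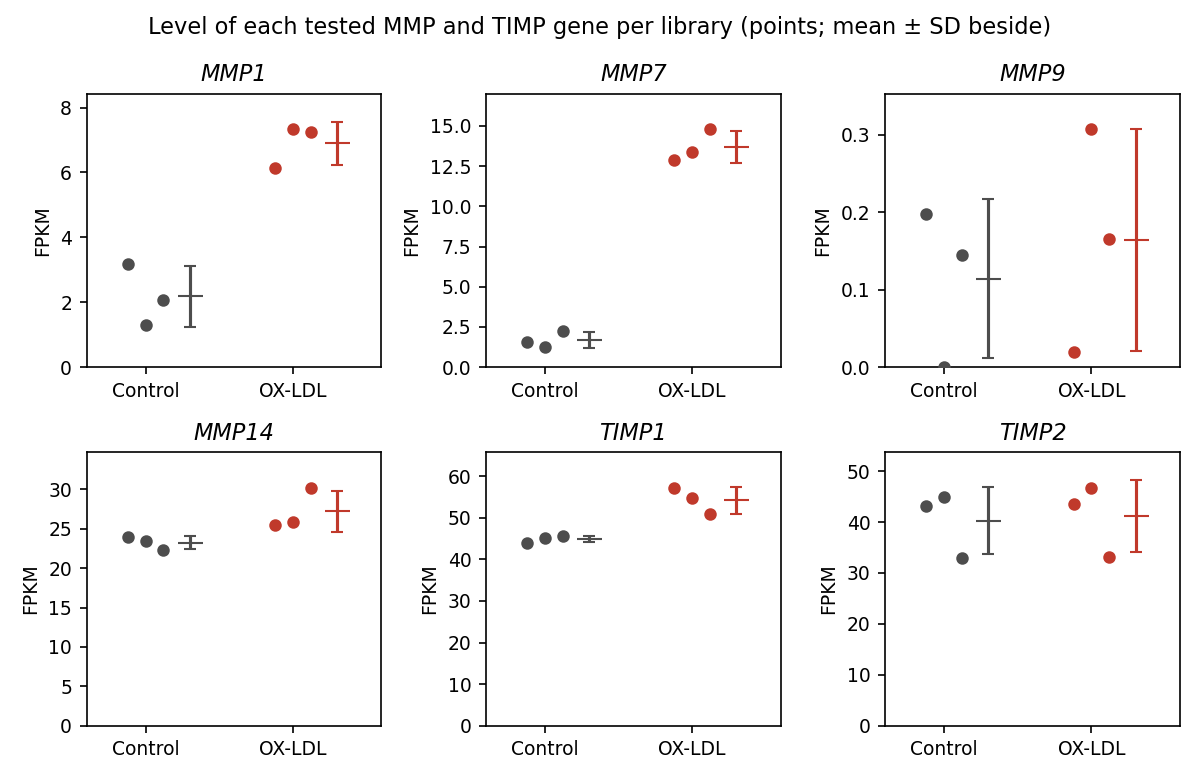
Level in FPKM (vertical axes, from 0, each gene on its own scale) of the 6 tested genes in the 3 Control libraries (grey points) and the 3 OX-LDL libraries (red points), with the mean and SD of each group beside the points. MMP7 and MMP1 show a wide gap between the groups, MMP14 and TIMP1 a narrow one, and the points of MMP9 and TIMP2 overlap.

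MMP7, or matrilysin, is a small MMP without the hemopexin domain that cleaves basement membrane proteins and sheds cell surface proteins such as E-cadherin. Its gene (ENSG00000137673) lies on the minus strand of chromosome 11 from 102520508 to 102530750. MMP7 stood at 1.55, 1.27 and 2.24 FPKM in Control replicates 1 to 3 and at 12.9, 13.4 and 14.8 FPKM in OX-LDL replicates 1 to 3. The groups were far apart relative to the spread within each. The mean went from 1.69 ± 0.497 to 13.7 ± 0.990 FPKM (SD, n = 3), and the log2 fold change of MMP7 was 3.05 (SE 0.23, 95% interval 2.51 to 3.58, edgeR adjusted p = 0.00121). This is an 8.27-fold rise, and 122 of the 19510 tested genes had a larger log2 fold change. The counts behind it were 317, 264 and 424 in Control and 2207, 2820 and 3110 in OX-LDL, so that MMP7 was well above the detection limit in every library. With each library left out in turn, the log2 fold change stayed between 2.87 and 3.30 and passed the threshold in 6 of 6 fits.

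MMP1, the interstitial collagenase, cleaves the triple helix of fibrillar collagens. The gene (ENSG00000196611) lies on the minus strand of chromosome 11 from 102789919 to 102798160. MMP1 was measured at 3.18, 1.31 and 2.08 FPKM in Control and at 6.14, 7.33 and 7.23 FPKM in OX-LDL. All OX-LDL libraries were higher than all Control libraries, and the Control libraries were spread more widely in proportion to their mean than the OX-LDL libraries. Mean MMP1 went from 2.19 ± 0.938 to 6.90 ± 0.662 FPKM (SD, n = 3), a 3.21-fold rise with a log2 fold change of 1.68 (SE 0.32, 95% interval 0.93 to 2.44, edgeR adjusted p = 0.0176). There were 460 genes with a larger log2 fold change. The MMP1 call was lost without Control replicate 3 (edgeR adjusted p = 0.0559) or OX-LDL replicate 3 (edgeR adjusted p = 0.0600), and over all fits that left out 1 library the log2 fold change lay between 1.41 and 2.06.

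MMP14, a membrane-type MMP also called MT1-MMP, sits at the cell surface, cuts pericellular collagen and activates the proenzyme of MMP2. It was the most abundant protease of the set, and its gene (ENSG00000157227) lies on the plus strand of chromosome 14 from 22836560 to 22849027. MMP14 was at 23.9, 23.5 and 22.3 FPKM in Control and at 25.5, 25.9 and 30.2 FPKM in OX-LDL. The groups did not overlap, and OX-LDL replicate 3 was the highest library. The difference missed the threshold, with a log2 fold change of 0.26 (SE 0.09, 95% interval 0.04 to 0.47, edgeR adjusted p = 0.106).

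The gelatinases MMP2 and MMP9 degrade denatured collagen and collagen IV. MMP2 (ENSG00000087245, chromosome 16, 55389700 to 55506239, plus strand) had 0 counts in 5 libraries and 4 counts in OX-LDL replicate 3, and so stayed under the detection limit. MMP9 (ENSG00000100985, chromosome 20, 46008908 to 46016561, plus strand) had 41, 0 and 28 counts in Control and 4, 66 and 36 in OX-LDL. These counts overlapped, with a log2 fold change of 0.57 for MMP9 and a 95% interval from -2.52 to 3.66 (edgeR adjusted p = 0.816). The MMP9 estimate turned to -0.01 with Control replicate 2 left out and to -0.21 with OX-LDL replicate 2 left out. MMP9 overlaps SLC12A5-AS1 on the other strand, which had 387 counts in all against 175 for MMP9, and the strand setting of the counting is not given in the sources used here.

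The stromelysins MMP3 and MMP10 cleave proteoglycans, laminin and other proenzymes. MMP3 (ENSG00000149968, chromosome 11, 102835801 to 102843609, minus strand) had 0, 5 and 0 counts in Control and 0, 8 and 12 in OX-LDL. MMP10 (ENSG00000166670, chromosome 11, 102770502 to 102780628, minus strand) had 16, 0 and 0 counts in Control and 8 in each OX-LDL library. Only Control replicate 1 exceeded the limit for MMP10, and no library did for MMP3. Neither gene was tested, and a difference between the groups was not detectable at this depth.

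**Figure D2:**
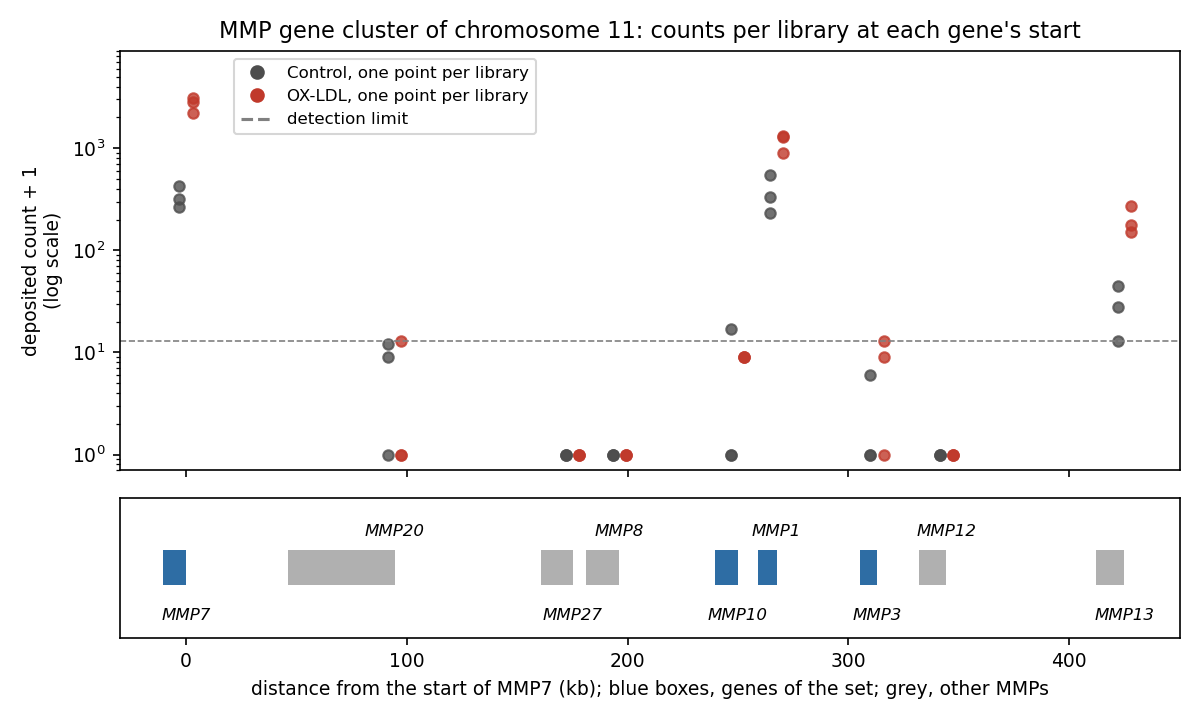
Top, deposited counts + 1 (log scale) of the 9 MMP genes in the cluster on chromosome 11, each at the start of its gene, with 1 point per Control (grey) and OX-LDL (red) library and the detection limit of 12 counts as a dashed line. Bottom, the genes as boxes against distance from the start of MMP7 in kb; MMP7, MMP1 and MMP13 show separated groups, and the genes between them lie near or under the limit.

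MMP7, MMP10, MMP1 and MMP3 share a cluster of 9 MMP genes on chromosome 11, from 102520508 to 102955732, and all 9 are on the minus strand. Only MMP7, MMP1 and MMP13 had more than 16 counts in any library, and other MMP genes lay between each of them. MMP1 starts 267 kb and MMP13 425 kb from the start of MMP7. Between or beside them, MMP20 and MMP3 did not exceed the limit in any library, and MMP27, MMP8 and MMP12 had 0 counts in all 6. MMP10, whose start is the closest in the cluster to that of MMP1, had at most 16 counts in any library against at least 231 for MMP1. MMP13, collagenase 3, is not one of the 10 genes and had 12, 44 and 27 counts in Control and 149, 176 and 273 in OX-LDL. WTAPP1, a transcribed pseudogene on the other strand, overlaps MMP1 and MMP10 and had 118 counts in all, against 4615 for MMP1 and 40 for MMP10.

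TIMP1 is a secreted inhibitor of most MMPs and also acts on cell growth. Its gene (ENSG00000102265) lies on the plus strand of chromosome X from 47582408 to 47586789. TIMP1 stood at 44.0, 45.1 and 45.5 FPKM in Control and at 57.3, 54.7 and 50.8 FPKM in OX-LDL. The Control libraries were nearly level, and each OX-LDL library lay above them. Mean TIMP1 went from 44.9 ± 0.777 to 54.3 ± 3.24 FPKM (SD, n = 3), a 1.24-fold rise with a log2 fold change of 0.31 (SE 0.07, 95% interval 0.14 to 0.47, edgeR adjusted p = 0.0317). The TIMP1 call was lost with any 1 of the 6 libraries left out, at edgeR adjusted p-values of 0.0834, 0.103 and 0.0714 without Control replicates 1, 2 and 3 and of 0.09997, 0.0545 and 0.0631 without OX-LDL replicates 1, 2 and 3. It was also lost when no minimum level was set (edgeR adjusted p = 0.0587).

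TIMP2 inhibits MMPs and, together with MMP14, takes part in activating the proenzyme of MMP2. It lies on the minus strand of chromosome 17 from 78852977 to 78922401 (ENSG00000035862). TIMP2 was at 43.2, 44.8 and 32.9 FPKM in Control and at 43.5, 46.7 and 33.2 FPKM in OX-LDL. The groups overlapped over nearly their whole range, and the lowest library of each was replicate 3. The log2 fold change of TIMP2 was 0.06 (SE 0.16, 95% interval -0.32 to 0.45, edgeR adjusted p = 0.843), and it was -0.07 with Control replicate 3 left out and -0.04 with OX-LDL replicate 2 left out. TIMP3 is bound to the extracellular matrix and also inhibits some ADAM proteases. It had 0 counts in all 6 libraries, and a count of 0 allows up to 12 counts, or 3 read pairs, per library. TIMP3 (ENSG00000100234, chromosome 22, 32801701 to 32863043, plus strand) lies within SYN3 on the other strand, which had 4 counts in all.

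**Figure D3:**
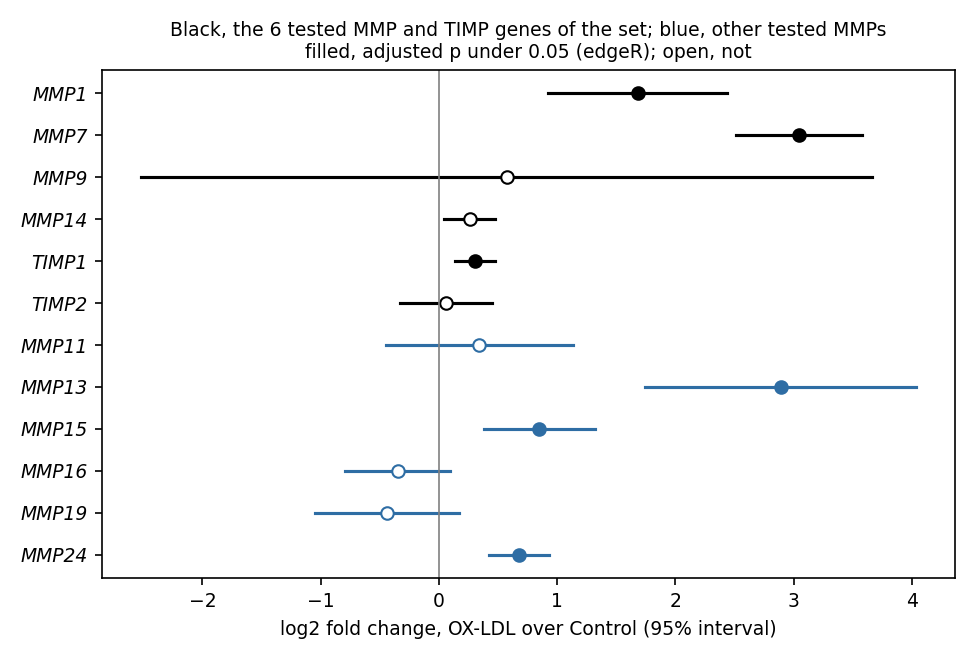
Log2 fold change of OX-LDL over Control (horizontal axis) with 95% intervals for the 6 tested genes of the set (black) and the 6 other tested MMPs (blue), filled where the edgeR adjusted p-value was under 0.05. MMP7 and MMP13 have the largest values, at 3.05 and 2.89, and the interval of MMP9 spans from -2.52 to 3.66.

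In order of mean level in Control, TIMP1 and TIMP2 were followed by MMP14, MMP1 and MMP7, at 44.9, 40.3, 23.2, 2.19 and 1.69 FPKM. The libraries of TIMP1 and TIMP2 overlapped, as did those of MMP1 and MMP7, and the libraries of MMP14 lay apart from both pairs. In OX-LDL the order was TIMP1, TIMP2, MMP14, MMP7 and MMP1, at 54.3, 41.2, 27.2, 13.7 and 6.90 FPKM. There MMP7 exceeded MMP1 in each library, with ratios of 2.10, 1.82 and 2.04, where the Control ratios were 0.488, 0.971 and 1.07.

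The FPKM values of the 7 MMPs summed to 28.97, 26.1 and 26.7 in Control and to 44.6, 47.0 and 52.5 in OX-LDL, so that the OX-LDL mean was 1.76 times the Control mean. MMP14 made up 85.3% ± 4.07 of this sum in Control and 56.6% ± 1.29 in OX-LDL, and MMP7 made up 6.19% ± 1.89 and 28.5% ± 0.381 (SD, n = 3). The share of MMP1 was 7.92% ± 2.97 in Control and 14.4% ± 1.05 in OX-LDL. Most of the MMP transcript in Control was thus that of the membrane-type enzyme, and in OX-LDL the secreted enzymes MMP7 and MMP1 together came closer to it.

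The 3 TIMPs summed to 87.2, 89.9 and 78.4 FPKM in Control and to 101, 101 and 84.0 FPKM in OX-LDL, with overlap between the groups. The ratio of the MMP sum to the TIMP sum within a library was 0.332, 0.290 and 0.341 in Control and 0.442, 0.464 and 0.625 in OX-LDL. Every OX-LDL ratio was above every Control ratio, and the TIMP sum exceeded the MMP sum in all 6 libraries. MMP7 over TIMP1 was 0.0375 ± 0.0107 in Control and 0.254 ± 0.0339 in OX-LDL, while MMP14 over TIMP2 was 0.585 ± 0.0819 and 0.683 ± 0.197 (SD, n = 3). No p-value is given for these sums and ratios, and an exact two-sided permutation test of 3 against 3 libraries cannot go below 0.1.

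**Figure D4:**
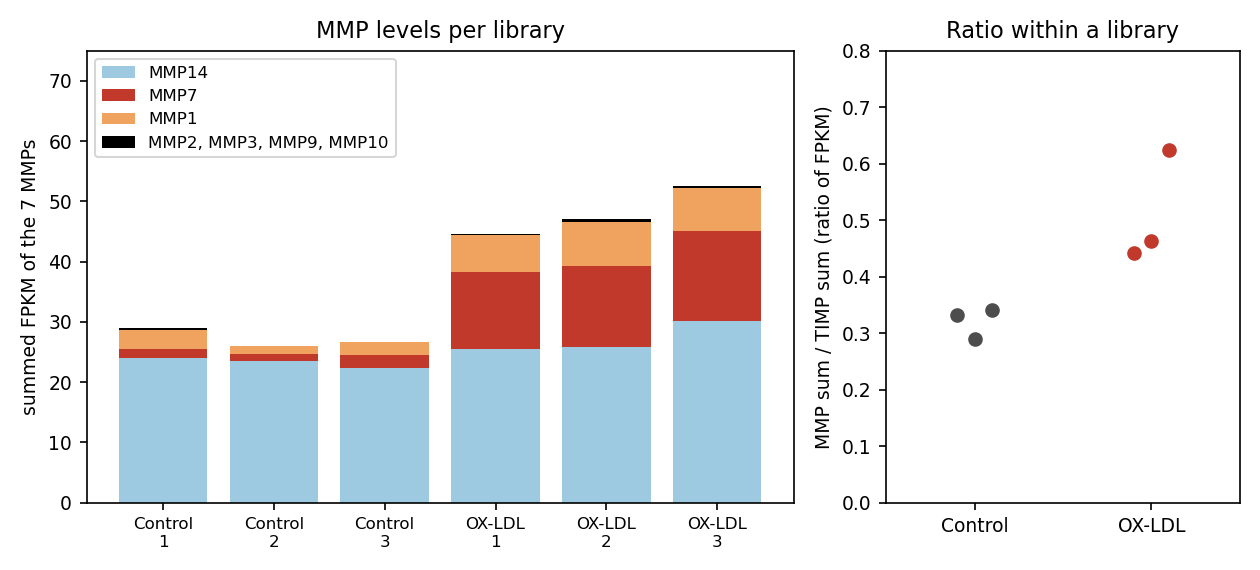
Left, summed FPKM of the 7 MMPs in each library as stacked bars from 0, divided into MMP14, MMP7, MMP1 and the other 4 genes. Right, the ratio of the MMP sum to the sum of the 3 TIMPs in each library; the MMP14 segment is 22.3 to 30.2 FPKM across libraries, the MMP7 segment is larger in all OX-LDL libraries, and the 3 OX-LDL ratios, 0.442 to 0.625, lie above the 3 Control ratios.

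Of the 16 other MMP genes of the genome that were listed, 6 were tested, and MMP13, MMP15 and MMP24 were higher in OX-LDL while none was lower. Of all tested genes, 7.91% were called higher and 7.42% lower. The median log2 fold change of the 6 was 0.51. MMP13 stood at 0.110 ± 0.0630 FPKM in Control and at 0.818 ± 0.212 FPKM in OX-LDL (SD, n = 3), a log2 fold change of 2.89 (SE 0.48, edgeR adjusted p = 0.0120) close to that of MMP7 but at a much lower level. MMP24, a membrane-type MMP, had 6.63, 8.03 and 8.41 FPKM in Control and at 11.6, 12.9 and 11.6 FPKM in OX-LDL, with a log2 fold change of 0.68 (SE 0.11, edgeR adjusted p = 0.0105). MMP15, also membrane-type, had a log2 fold change of 0.85 (SE 0.20, edgeR adjusted p = 0.0331). The MMP15 call was lost (edgeR adjusted p in parentheses) without Control replicate 1 (0.0957) or 2 (0.113) or, in turn, without OX-LDL replicate 1 (0.0766), 2 (0.0544) or 3 (0.0512). MMP16 had a log2 fold change of -0.35 (edgeR adjusted p = 0.269).

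Among 4 other inhibitors, TFPI2 and RECK were tested and neither passed, where 15.3% of all tested genes passed in either direction. TFPI2, a secreted protease inhibitor, was at 23.2 FPKM in Control and at 25.2 FPKM in OX-LDL (log2 fold change 0.15, edgeR adjusted p = 0.603), and RECK, a membrane-anchored MMP inhibitor, was at 2.17 and 2.13 FPKM (log2 fold change 0.01, edgeR adjusted p = 0.980). The sign for RECK changed with the scaling. Of 9 activation and surface partners, 7 were tested, with a median log2 fold change of 0.04. Of these 7, 1 passed, a share close to the 15.3% of all tested genes. The only one that passed was CD44, the hyaluronan receptor that can hold MMP7 and MMP9 at the cell surface. CD44 was at 3.90, 3.13 and 6.17 FPKM in Control and at 9.03, 8.77 and 11.7 FPKM in OX-LDL, with a log2 fold change of 1.19 (SE 0.26, edgeR adjusted p = 0.0265), and the CD44 call was lost (edgeR adjusted p in parentheses) without Control replicate 1 (0.0818) or 2 (0.0657) or, in turn, without OX-LDL replicate 1 (0.0667) or 3 (0.0863). PCSK7, a proprotein convertase, had a log2 fold change of -0.35 (edgeR adjusted p = 0.169). CD63, a TIMP1 receptor, had one of -0.24 (edgeR adjusted p = 0.181), and LCN2, which binds MMP9, one of 0.99 (edgeR adjusted p = 0.240).

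ADAM and ADAMTS proteases are related metalloproteinases, and TIMP3 can inhibit some of them. Of 22 listed, 16 were tested, 2 were higher and 1 was lower, where 15.3% of all tested genes passed in either direction, and the median log2 fold change of the 16 was 0.19. ADAM12 went from 0.168 to 1.07 FPKM (log2 fold change 2.69, SE 0.31, edgeR adjusted p = 0.00428), and ADAMTS9, which cleaves proteoglycans, from 7.90 to 11.5 FPKM (log2 fold change 0.57, SE 0.09, edgeR adjusted p = 0.0108). ADAMTS5, an aggrecanase, fell from 0.990 to 0.348 FPKM (log2 fold change -1.47, SE 0.23, edgeR adjusted p = 0.00976). ADAM10, a sheddase, had a log2 fold change of 0.30 (edgeR adjusted p = 0.0634), and it passed with DESeq2 (adjusted p = 0.0323) and, in edgeR, with upper-quartile factors (adjusted p = 0.0495) or a minimum of 1 FPKM (adjusted p = 0.0408).

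AP-1, ETS and TCF proteins are transcription factors known to act on MMP promoters, MMP7 and MMP1 among them. Of 16 listed genes, 15 were tested, 3 were higher and 3 were lower, where 7.91% of all tested genes were called higher and 7.42% lower, and the median log2 fold change of the 15 was -0.07. Within AP-1 the genes that passed moved in opposite directions. FOS, FOSB, FOSL2 and JUND did not pass (edgeR adjusted p = 0.666, 0.684, 0.269 and 0.637). JUN was at 29.4, 40.5 and 35.9 FPKM in Control and at 18.2, 15.8 and 16.8 FPKM in OX-LDL (log2 fold change -1.03, SE 0.12, edgeR adjusted p = 0.00432). FOSL1, a FOS family partner of JUN, was at 7.34, 6.52 and 9.14 FPKM in Control and at 13.8, 10.6 and 15.0 FPKM in OX-LDL (log2 fold change 0.81, SE 0.18, edgeR adjusted p = 0.0293). The FOSL1 call was lost (edgeR adjusted p in parentheses) without Control replicate 1 (0.0843) or 2 (0.0928) or, in turn, without OX-LDL replicate 1 (0.0909) or 3 (0.0965). JUNB and ETV4 completed the list's 6 calls and were named after their values had been seen. JUNB had a log2 fold change of 0.64 (edgeR adjusted p = 0.0400), and this call was lost, at the edgeR adjusted p in parentheses, without a minimum level (0.0569), without Control replicate 1 (0.0866) or 2 (0.130) or, in turn, without OX-LDL replicate 1 (0.112), 2 (0.0739) or 3 (0.113).

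Of the ETS factors, ETV5 fell in all OX-LDL libraries, from 20.9 to 8.17 FPKM (log2 fold change -1.32, SE 0.11, edgeR adjusted p = 0.00170). ETV4 had a log2 fold change of -0.64 (edgeR adjusted p = 0.0347), and this call was lost, at the edgeR adjusted p in parentheses, without Control replicate 1 (0.0848) or 2 (0.0948) or, in turn, without OX-LDL replicate 1 (0.0999), 2 (0.0749) or 3 (0.0766). CTNNB1, which encodes β-catenin, the partner of TCF factors and a component of cell junctions, rose from 15.3 to 22.4 FPKM (log2 fold change 0.58, SE 0.06, edgeR adjusted p = 0.00295). CTNNB1 libraries were tight in both groups, at 14.9 to 15.7 FPKM in Control and at 22.3 to 22.7 FPKM in OX-LDL. Over the 5 lists, 13 of 46 tested genes passed, 9 higher and 4 lower, beside 15.3% of all tested genes, 7.91% higher and 7.42% lower.

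**Figure D5:**
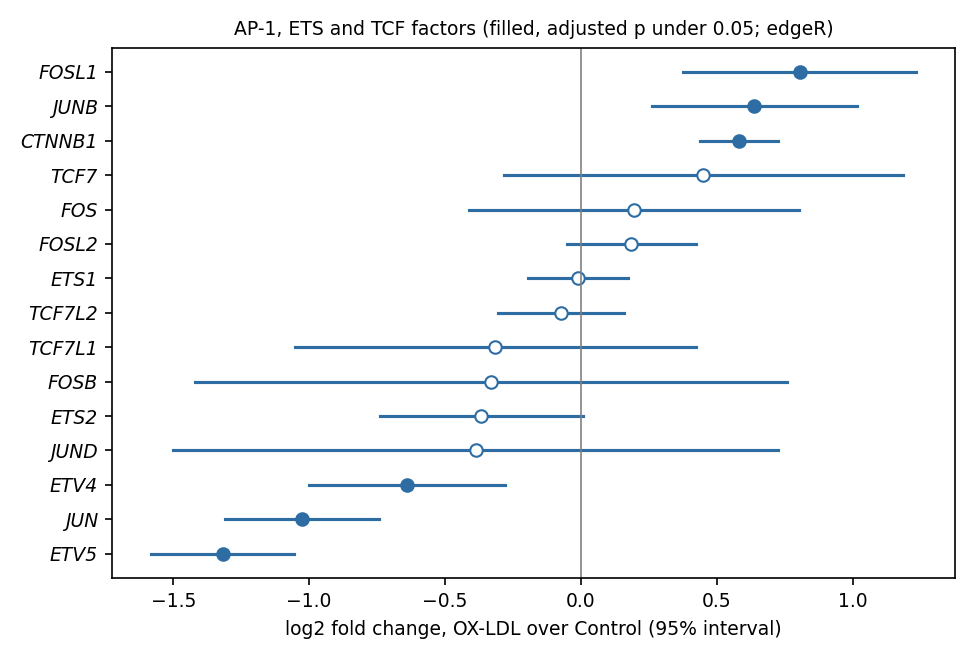
Log2 fold change of OX-LDL over Control (horizontal axis) with 95% intervals for the 15 tested AP-1, ETS and TCF genes, sorted by value and filled where the edgeR adjusted p-value was under 0.05. FOSL1, JUNB and CTNNB1 lie to the right of 0 and ETV4, JUN and ETV5 to the left.

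Markers of other cell types were examined because stromal cells and leukocytes also make MMPs. The summed level of 7 leukocyte markers was 3.17 to 7.80 FPKM in Control and at 9.20 to 14.2 FPKM in OX-LDL, nearly all of it CD68, a lysosomal protein that was at 5.21 and 10.8 FPKM. PTPRC, CD163 and LYZ did not exceed the detection limit in any library, and CD163 was at 0 in all 6. CSF1R, a macrophage growth factor receptor, had 9, 12 and 4 counts in Control and 65, 16 and 94 in OX-LDL, so that it exceeded the limit in the OX-LDL libraries only, at a level too low to be tested. CD14 exceeded the limit in every library, with 51, 42 and 26 counts in Control and 45, 39 and 26 in OX-LDL (log2 fold change -0.02, edgeR adjusted p = 0.980). Both were named after their values had been seen. The 7 fibroblast markers summed to 10.1 to 12.01 FPKM in Control and at 8.77 to 14.1 FPKM in OX-LDL, mostly LUM at 10.2 and 11.4 FPKM, with DCN at 0 in every library and COL1A2 and PDGFRA not over the limit. Among the fibroblast markers, COL1A1 and PDGFRB also exceeded the limit in all 6 libraries. Control counts of COL1A1 were 408, 497 and 556, and those in OX-LDL were 647, 836 and 561. COL1A1 did not pass (log2 fold change 0.54, edgeR adjusted p = 0.148). PDGFRB, too low to be tested, had 19 to 33 counts per library. COL3A1 exceeded the limit only in OX-LDL replicate 3, with 16 counts. The 5 endothelial markers summed to at most 0.122 FPKM in any library, TEK being the most abundant. The 5 epithelial markers summed to 120 to 145 FPKM in Control and at 174 to 224 FPKM in OX-LDL, and PAX8 was at 46.6 FPKM in Control and at 19.4 FPKM in OX-LDL. Of the epithelial markers, KRT8 and KRT19 passed (edgeR adjusted p = 0.0116 and 0.00207). KRT18, EPCAM and CDH1 did not (edgeR adjusted p = 0.123, 0.580 and 0.890). CD68 did not pass either (log2 fold change 1.08, edgeR adjusted p = 0.0858). By level, the epithelial sum, CD68, CSF1R and MMP7 were higher and PAX8 was lower in the OX-LDL libraries. The part of these levels in the MMP results was not tested.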

How the data were processed

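RNA-seq of 6 HK-2 libraries (3 Control, 3 OX-LDL) was analysed from the processed table that the authors deposited, grouped by the labels. It holds estimated counts, deposited as whole numbers without scaling and taken as they stand, and FPKM values, for which the authors divided by transcript length and library size. Genes without counts are listed there at 0.0001, which was read as 0 for levels and sums. The submitters' processing notes name cutadapt 1.9, HISAT2 2.0.4, StringTie 1.3.4d, edgeR, DESeq2 and GRCh38. Their roles, the annotation and the strand setting of the counting are not given in the sources used here, so genes that overlap on opposite strands may share counts. Coordinates are those of the deposited table. Genes at exactly 4, 8 and 12 counts were 2.75, 2.56 and 2.03 times as frequent as at neighbouring counts, hence about 4 counts per read pair and a limit of 12 counts, which covers counting error only. On counts divided by 4, chi-square per gene between libraries of 1 group was 14.3 to 24.8, so no library was the same one deposited again. This does not show whether they came from separate cultures.

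Counts were normalized with TMM and tested with glmQLFit and glmQLFTest (edgeR 4.0.16, R 4.3.3, two-sided, group as the only term) over the 19510 genes whose mean reached 0.1 FPKM, adjusted by the Benjamini-Hochberg method. Each SE was obtained by dividing a log2 fold change by the square root of its F. The alternatives were DESeq2 1.42.0, limma 3.58.1 on log2(FPKM + 0.1, 1 or 0.01), other size factors, no minimum and a mean of at least 1 FPKM, counts divided by 4, a replicate block and leaving out each library. The fits were tested on simulated data. All 10 genes were named, and of each list up to 4 tested genes with the smallest p-values, every MMP gene of the chromosome 11 cluster, and of the cell type markers those at 0 in every library and the most abundant of each list. Other genes were named after their values had been seen. The 10 genes and the lists were chosen with earlier results of these data known, so their counts are read beside those of all genes and no list was tested.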

Additional observations from a re-analysis of the deposited data

How the results depend on the processing

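MMP7 passed the threshold under all 11 alternatives that kept every library (log2 fold change 2.46 to 3.08), as did MMP1 (1.35 to 1.77, adjusted p at most 0.0466), and TIMP1 passed under 9 of 11. MMP14 passed under none of the alternatives, with edgeR, DESeq2 or limma adjusted p-values between 0.0722 and 0.262. Of the 10 genes, 3 passed, 2 without a minimum level and 2 with the replicate block, and 3 under each other alternative that kept all libraries. Leaving out 1 library gave 1 to 2 of them, the lower number with either replicate 3 left out. Over all genes the count of 2991 became 1161 (without Control replicate 2) to 2943 (without OX-LDL replicate 2), with 1796 without Control replicate 1, 1993 without Control replicate 3, 1262 without OX-LDL replicate 1 and 1163 without OX-LDL replicate 3. The 13 calls of the lists became 10 to 14 under the alternatives that kept all libraries, with 14 in DESeq2 and with upper-quartile factors and 10 with the replicate block, and 8 to 13 with 1 library left out, with 8 without Control replicate 1 or 2 and 8 without OX-LDL replicate 1 or 3. Fits with a library left out rest on fewer samples, and any other cause was not tested.

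The log2 fold change of MMP9 ranged from -0.21 to 1.24 and that of TIMP2 from -0.065 to 0.19 with 1 library left out. RECK was at -0.0217 with library sizes only, -0.0047 without a minimum level, and -0.0231, -0.0168 and -0.0241 in limma with pseudocounts of 0.1, 1 and 0.01, and ranged from -0.048 to 0.042 with 1 library left out. No scaling moved the median of all genes beyond -0.04 to 0.02.

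The labels number the replicates 1 to 3 in both groups. Deviations from the group means correlated at -0.11, -0.03 and -0.01 between same-numbered libraries over 12259 genes. No library correlated best with its own number, so the numbers were not taken as pairs. With the replicate block, 1636 genes passed, MMP1 had an adjusted p of 0.0466 and TIMP1 one of 0.0896, and MMP15 (0.0812), JUNB (0.0650) and ETV4 (0.0806) also lost their calls (edgeR adjusted p). MMP2, MMP3, MMP10 and TIMP3 lay under the minimum level for testing and could not be compared.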
